A study of Mus musculus with 10 samples.

Results

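The programme described here is the set of genes whose transcripts separated lymphatic endothelium of both tissues sampled from lymph node blood endothelium in the same way. RNA was sequenced from 3 endothelial populations of C57BL/6 mice of 6 to 8 weeks: lymphatic endothelial cells (LEC) of pooled lymph nodes (LN-LEC, 4 libraries), LEC of the diaphragm (D-LEC, 3 libraries) and blood endothelial cells (BEC) of the same kinds of lymph node (LN-BEC, 3 libraries). None of the populations carried a transgene or received a treatment. The nodes were inguinal, axillary, brachial, cervical and mesenteric, and each library pooled cells of several mice, so that the spread between libraries describes pools and not single animals. A gene was a member if its 7 LEC libraries all lay above, or all below, its 3 LN-BEC libraries and if its LN-LEC and D-LEC means differed by at most 2-fold. Of 15319 genes tested, 2734 were members (17.8%), 1359 of them higher in both LEC populations (8.87%) and 1375 lower (8.98%). The membership was read from the measured levels, so that levels and folds of members are given as description and without a test. Only the lymph node contributed BEC, and much of that endothelium is high endothelial venule (HEV), so that blood lineage and lymph node venule cannot be told apart on the BEC side. Without BEC of the diaphragm, D-LEC differed from LN-BEC in both lineage and tissue, and these cannot be told apart in that comparison.

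Lymphatic endothelium arises largely from embryonic veins, where the homeobox factor Prox1 imposes lymphatic identity on cells that already carry an endothelial programme. The lymphatic state is kept by Prox1 in adult vessels, and VEGF-C acting on the receptor Flt4 (VEGFR3) drives their growth. Lymphatic capillaries lack a continuous basement membrane and have loose overlapping junctions, which lets fluid and cells enter, whereas blood capillaries and venules rest on a closed membrane of collagen IV and laminin.

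Levels below are normalized counts, that is, counted fragments divided by a size factor for each library. They may be compared between libraries of 1 gene, and between genes only after division by the exon length in kilobases (per kb). Library totals ran from 22429940 to 48906070 fragments, and 3 fragments correspond to between 1.89 and 3.89 normalized counts. The log2 fold changes are the mean of the LN-LEC and D-LEC means minus the LN-BEC mean, with their SE from edgeR's quasi-likelihood fit, and a value with ± in parentheses after a gene is this log2 fold change and its SE. In bulk RNA fewer cells of a kind and less RNA per cell cannot be told apart. The labels held up against the markers: Prox1 reached between 6666 and 8777 (median 8291) in the LEC libraries and 208, 115 and 349 in LN-BEC replicates 1 to 3. LN-BEC replicate 3 held the most LEC transcript of its group, with Lyve1 at 5.89% of the LN-LEC mean against 1.45% and 1.06% in replicates 1 and 2. It was also the highest of the 3 LN-BEC libraries for 128 of the 198 higher members with at least a 4-fold difference. Glycam1, an HEV mucin, reached 2.26% to 3.36% of the LN-BEC mean in LN-LEC and 0.00735% to 0.0267% in D-LEC. Whether RNA or cells were carried over between the populations was not tested.

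Most differences in the programme were small. The median log2 fold change was 0.75 for the higher and -0.95 for the lower members, and 862 of the higher members (63.4%) and 708 of the lower (51.5%) differed by less than 2-fold. At least a 4-fold difference was found for 198 higher and 335 lower members, and at least a 32-fold difference for 11 and 49. The higher side was also well expressed: 1226 higher members averaged at least 100 in LEC, and 1130 lower members did so in LN-BEC. Of the lower members, 35 had no fragment in any LEC library, and those count as within the limit.

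The comparisons of each LEC population with LN-BEC share the LN-BEC libraries and are given side by side. In the whole-table fit of LEC versus BEC 6577 genes (42.9%) were called at an adjusted p under 0.05. Against LN-BEC, 3031 genes were called higher (19.8%) and 2815 lower (18.4%) in LN-LEC, and 3439 higher (22.4%) and 3922 lower (25.6%) in D-LEC. Opposite calls were made for 789 genes, 511 with LN-LEC above LN-BEC and 278 with D-LEC above it. Among the leading members both folds were alike: for Prox1 the log2 fold change was 5.20 ± 0.35 in LN-LEC and 5.15 ± 0.36 in D-LEC, for Mrc1 5.75 ± 0.58 and 6.15 ± 0.60, for Abcb1a -6.76 ± 0.22 and -6.46 ± 0.25, and for Prdm1 -6.48 ± 0.20 and -7.22 ± 0.24. Likeness of this kind is what the 2-fold limit selects. Of the genes that separated the lineages but failed the 2-fold limit, 787 were lower in LEC, and 600 of these had the higher LEC mean in LN-LEC. Among the 424 on the other side it was the reverse, with 311 higher in D-LEC. Built the same way, a rule that pairs both lymph node populations against D-LEC found 3591 genes, and one that pairs LN-BEC and D-LEC against LN-LEC found 2061. The last rule sets 4 libraries against the rest and the other rules 3, so that its count is not strictly comparable.

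**Figure D1:**
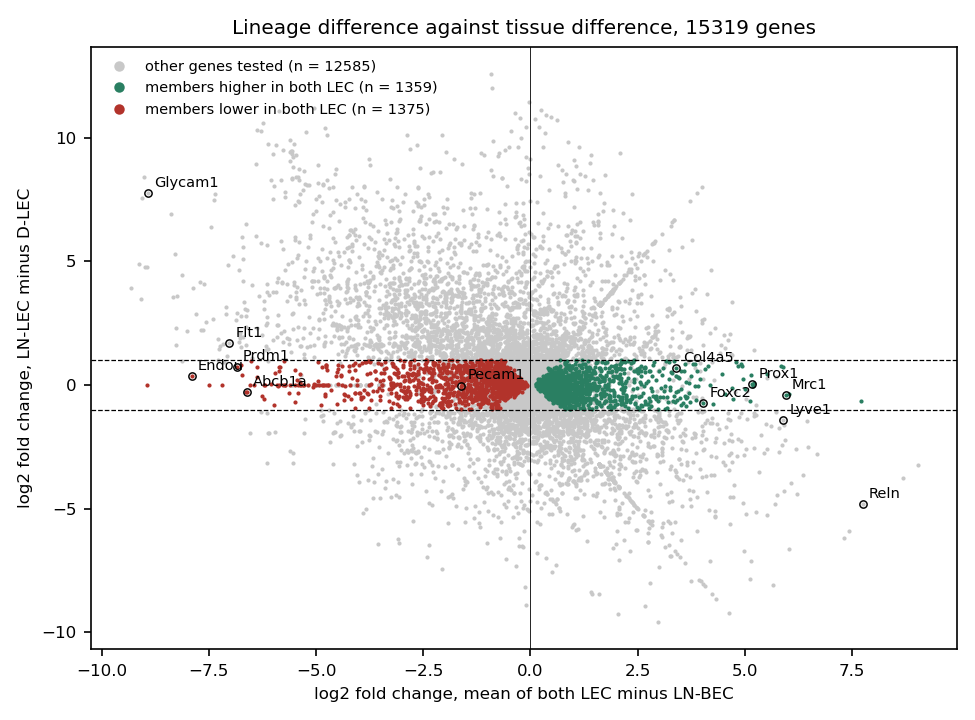
Each point is a gene: the x axis gives the log2 fold change of both LEC over LN-BEC and the y axis that of LN-LEC over D-LEC, with dashed lines at 2-fold. The 1359 higher (green) and 1375 lower (red) members lie in the band by construction, and Lyve1, Reln, Flt1 and Glycam1 lie outside it.

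The limit itself cuts through a continuum. Just inside it on the higher side, Hmgn3 had LEC means 1.975-fold apart, Trp53bp2 1.998-fold and Fam63b 1.992-fold, and just outside it stood Lgr4 at 2.008-fold and Bmp2k at 2.014-fold. On the lower side Spred1 (1.997-fold), Fez2 (1.988-fold) and Slco2a1 (1.991-fold) were the last inside and Col13a1 (2.002-fold), Id2 (2.001-fold) and Net1 (2.009-fold) the first outside. Most members were far from the limit: the LEC means differed by a median of 1.19-fold for higher and 1.23-fold for lower members.

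Most genes of lymphatic identity were higher in LEC. Of 23 tested genes of a lymphatic identity list, 20 were called higher in LEC and 2 lower in the whole-table fit, against a background of 20.0% of all genes called higher and 23.0% called lower (adjusted p under 0.05). The list's median log2 fold change was 3.28, against -0.02 over all genes tested. Of the 23, 9 were members, since most surface and secreted markers on the list differed by over 2-fold between the LEC populations. Prox1, Maf, Tbx1, Nr2f2, Foxc2, Hhex and the integrin gene Itga9 were among the higher members, and Gata2 was the lower one. Prox1 was at 8343, 8291, 8188 and 7578 in LN-LEC and 6666, 8777 and 8395 in D-LEC, a log2 fold change of 5.18 ± 0.34 over LN-BEC with both LEC means within 1.02-fold. Maf, a leucine zipper factor, stood between 30959.6 and 42929.7 (median 34212) in LEC against 890.3, 633 and 1938 in LN-BEC (5.0 ± 0.39). Tbx1, a T-box factor needed for lymphatic vessel growth, reached 3077, 2814, 3199.98 and 3042 in LN-LEC, 3388, 2633 and 2782 in D-LEC and 50.8, 28.5 and 170.2 in LN-BEC. Nr2f2 (COUP-TFII), the venous factor that works with Prox1, was also present in LN-BEC at 4172, 4097 and 4078 and stood between 17908 and 31163 (median 23512) in LEC. Foxc2, the forkhead factor of collecting vessels and valves, stood between 7335 and 17463 (median 10238) in LEC against 818, 309.6 and 924 in LN-BEC. The difference of Hhex was small, at 0.90 ± 0.09.

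Sox18, which switches on Prox1 in the embryo, was no member: LN-LEC held 4188, 3642, 4504 and 4373, D-LEC 11974, 9995 and 9213 and LN-BEC 10809.97, 11441 and 10367, so that D-LEC overlapped LN-BEC and LN-LEC lay below both. Its contrast was called lower in LEC (-0.72 ± 0.09, adjusted p = 1.6e-05). Gata2 was lower in every LEC library, between 3403 and 3829 (median 3567) against 4588, 4967 and 4838 (-0.42 ± 0.06). The markers used to recognize LEC separated the lineages widely but with a tissue difference that kept them out of the programme. Lyve1, the hyaluronan receptor, stood at 61045, 59819.6, 73893 and 48523 in LN-LEC, 156696, 185604 and 156738 in D-LEC and 883, 643 and 3579 in LN-BEC. Reln, Mmrn1, Flt4, Stab1 and Thy1 were like it, with D-LEC means 28.4, 6.12, 5.03, 2.62 and 6.74 times the LN-LEC means. Pdpn, whose protein defined the sort gate, had a D-LEC mean 3.36 times the LN-LEC mean and is no independent finding. Ccrl1 ran the other way, at 7382, 6469, 6062 and 12966 in LN-LEC, 83.2, 89.2 and 109 in D-LEC and 306, 137 and 506 in LN-BEC. The Tie1 contrast was not called (-0.08 ± 0.09, adjusted p = 0.51), and Ccl21a had no fragment in any library.

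Further factors outside that list belonged to the programme. Foxp2, a forkhead repressor, was at 6558, 6726, 5796 and 8085 in LN-LEC, 2869, 4245 and 4264 in D-LEC and 369, 135 and 608 in LN-BEC (3.79 ± 0.47). Foxc1, the close relative of Foxc2, stood between 876 and 1997 (median 1305) in LEC and 415 and 747 in LN-BEC, a smaller difference of 1.27 ± 0.31. Foxl1 was scarce, at most 38.1, but still separated the lineages. Myc was between 843 and 1067 (median 954) in LEC and 342 and 387 in LN-BEC. The 4 Fox genes of the programme that were higher in LEC are Foxc1, Foxc2, Foxl1 and Foxp2, and only Foxs1 was lower. Of 30 Fox genes tested, 6 were called higher and 8 lower, shares close to the 20.0% and 23.0% over all genes. Nfatc1, the calcium-dependent factor of valve formation, was between 8732 and 16045 (median 9419.7) in LEC and 3074 and 3301 in LN-BEC.

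The widest gaps between libraries on the higher side belonged to membrane and secreted proteins besides these factors. Mrc1, the mannose receptor that takes up glycoproteins, led them with 6621, 6537, 8243 and 4787 in LN-LEC, 8702, 9011 and 8460.1 in D-LEC and 78.8, 46.7 and 249 in LN-BEC. Its lowest LEC library was 19.2 times its highest LN-BEC library, and the log2 fold change was 5.95 ± 0.57. Slc16a12, of the monocarboxylate transporter family, was between 2891 and 3999.95 (median 3154) in LEC against 67.4, 25.9 and 187. Slc38a4, an amino acid carrier, was between 5392 and 12119.8 (median 10378) against 186, 111 and 559.8. Both transporters were lowest in LN-BEC replicate 2 and highest, within that group, in replicate 3. Fxyd6, a regulator of the sodium pump, reached 16879 and 34396 (median 24053) in LEC against 968, 302 and 1635, and the endoplasmic reticulum protein Reep1 reached 2271 and 3242 (median 2558) against 149, 78.7 and 221. Lingo1 and Nrxn2, best known from neurons as a leucine-rich repeat coreceptor and a synaptic adhesion protein, were present in LEC at 190.04 and 382 (median 294) and 389.7 and 657 (median 512) and in LN-BEC at no more than 11.6 and 24.2. Plekha4, Hivep3, Heatr8 and Dbc1 completed the 15 leading genes with Prox1, Maf, Tbx1 and Sema3d. Dbc1 had no fragment in LN-BEC replicate 2 and 13.7 in replicate 3.

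On the lower side the gaps were wider. Endou, an endoribonuclease, was at 468, 464 and 546 in LN-BEC and at most 6.31 in LEC, with no fragment in D-LEC replicates 2 and 3. Prdm1, which encodes the repressor Blimp-1, was at 1514, 1436 and 1405 in LN-BEC, 14.3, 7.62, 22.6 and 17.6 in LN-LEC and 6.31, 12.02 and 9.92 in D-LEC (-6.85 ± 0.17). Abcb1a, the drug efflux pump P-glycoprotein, was at 6505, 5805 and 6152 in LN-BEC and between 36.8 and 89.2 (median 62.2) in LEC. Sparcl1 (hevin), a matricellular protein abundant in HEV, was at 34787, 29249 and 33506 in LN-BEC, 643, 296, 327 and 670.1 in LN-LEC and 367, 161 and 239.6 in D-LEC. What remained in LEC was a small share of the LN-BEC level, 0.859% for Prdm1, 0.999% for Abcb1a and 1.14% for Sparcl1. Nes (nestin), an intermediate filament, was between 26.4 and 63.5 (median 42.1) in LEC and 2372 and 2558 in LN-BEC, and Gda, guanine deaminase, between 51.1 and 129.6 (median 91.6) in LEC and 4733 and 5486 in LN-BEC. Alox12, a lipoxygenase, and Rapgef4 (Epac2), a cyclic AMP-dependent activator of Rap, reached at most 36.3 and 41.6 in LEC against at least 1458 and 1312 in LN-BEC. Lims2, a focal adhesion adaptor, was between 31.7 and 114 (median 61.1) in LEC and 3759 and 4746 in LN-BEC, and 11.1% of its exon bases overlap another gene of the table. Plscr2, Asb4, Vwa3a, Fam70b, Kcnq1 and Lypd2 made up the rest.

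**Figure D2:**
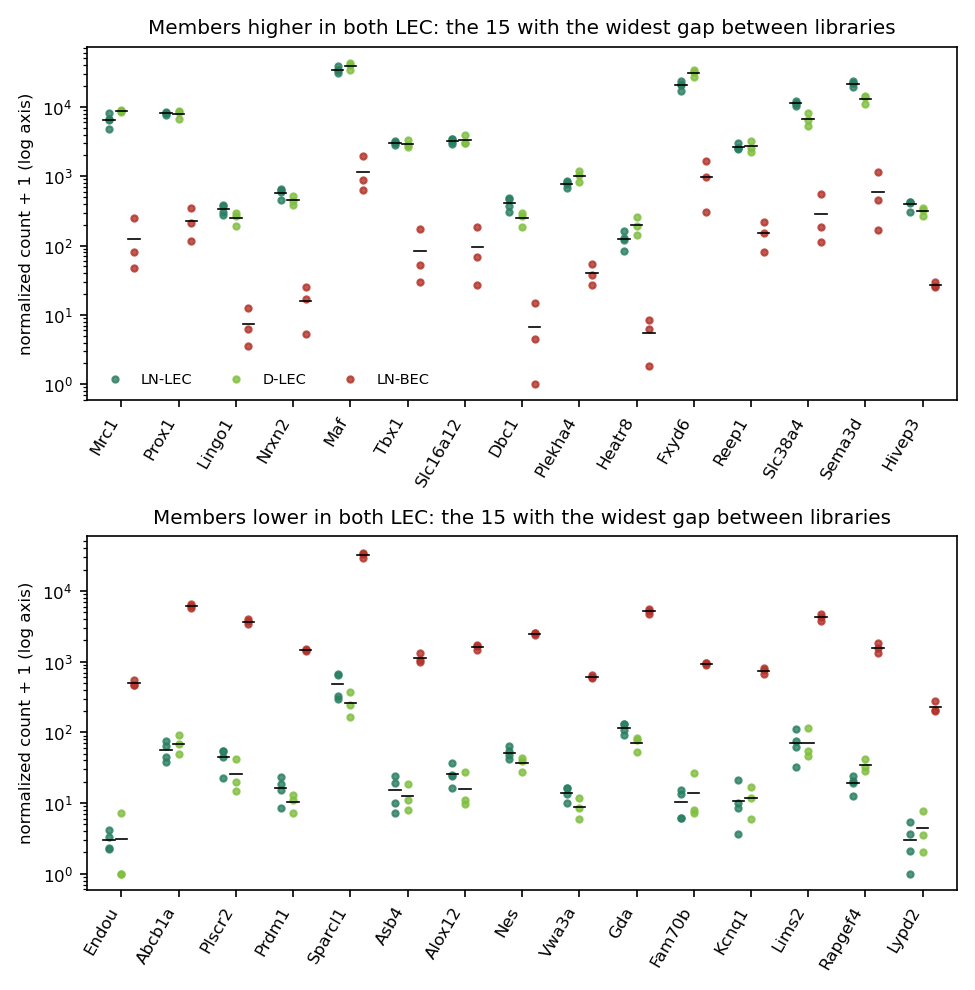
Normalized counts plus 1 on a log axis for the 15 higher (top) and 15 lower (bottom) members with the widest gap between the lineages; each point is a library and each bar a population mean. In the top panel the 3 LN-BEC points of a gene spread widely, and for Mrc1 they ran from 46.7 to 249.

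The blood endothelial identity list was mostly lower in LEC, with few members. Of 29 tested genes, 24 were called lower (82.8%) and 3 higher (10.3%), against 23.0% and 20.0% over all genes. The median log2 fold change was -3.74, yet Vwf, Sele, Sox7, Mcam and Cxcl12 were the list's only lower members. Vwf, the clotting glycoprotein of Weibel-Palade bodies, was at 119, 102, 94.98 and 191 in LN-LEC, 109.7, 178 and 205 in D-LEC and 6842, 6424 and 5769 in LN-BEC. Cxcl12, the chemokine that retains leukocytes, stayed at 3.77% of its LN-BEC mean, between 945 and 2037 (median 1245) in LEC against 35465, 36076 and 34789.8. Mcam (CD146) was between 838 and 2629 (median 1513) in LEC and 19199 and 22731 in LN-BEC, and Sox7 between 3484 and 4063 (median 3648) in LEC and 7177 and 7983 in LN-BEC. Sele, E-selectin, was scarce throughout, at 129.6, 109 and 124 in LN-BEC and at most 52.2 in LEC. Another 17 genes of the list lay below LN-BEC in every LEC library but failed the limit, and in 13 of them LN-LEC held more than D-LEC. Nrp1, a coreceptor of VEGF-A, was at 887, 479, 534 and 795 in LN-LEC, 131, 56.1 and 131 in D-LEC and 47089.8, 44379 and 45414 in LN-BEC. Flt1 (VEGFR1), Aplnr, Esm1 and Ly6c1 were like it, with LN-LEC means 3.23, 12.1, 4.16 and 7.48 times the D-LEC means. Cd34, Notch4, Emcn and Aqp1 had the higher LEC mean in D-LEC instead. Kdr (VEGFR2) was not called (-0.26 ± 0.10, adjusted p = 0.051). Tal1, a helix-loop-helix factor of blood and vessel, ran against its list as a higher member, between 2643 and 4407 (median 2791) in LEC and 1877 and 1931 in LN-BEC (0.83 ± 0.07). Lymphocyte and pan-leukocyte markers mostly moved with this side of the comparison. Called lower in LEC were 9 of 11 T cell markers (81.8%), 11 of 12 B cell markers (91.7%) and 8 of 10 pan-leukocyte markers (80%). Over all genes the share was 23.0%, and of 11 myeloid markers 2 were called lower (18.2%). Ptprc (CD45) was at 321, 324 and 208 in LN-BEC and at most 50.8 in LEC, and the summed pan-leukocyte markers ran from 13876 to 17505 in LN-BEC against 4701 to 7301 in LEC. Summed B cell markers ran from 2260 to 3059 in LN-BEC, 872 to 1695 in LN-LEC and 251 to 407 in D-LEC, and summed T cell markers from 618 to 1041, 399 to 430 and 1772 to 2379. The T cell sum was highest in D-LEC although 8 of the 11 markers were called lower there than in LN-BEC and only 1 higher. None of these markers was at 0 in every library. Il7r, Cd3e, Cd79a, Pax5 and Pou2af1 were themselves lower members. How much leukocyte RNA contributed to the lower members was not tested.

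Genes that both endothelia share were mostly weaker in LEC of either tissue than in LN-BEC. Of 25 pan-endothelial genes, 17 were called lower (68%) and 3 higher (12%), against 23.0% and 20.0% over all genes. The median log2 fold change was -0.69, and 13 were lower members, against 8.98% of all genes tested. Esam, an adhesion molecule of tight junctions, differed most, between 559.8 and 999 (median 762) in LEC against 12156, 13225 and 14919.8 (-4.10 ± 0.12). Eltd1, an adhesion-type receptor, was between 1553 and 2432 (median 1936) against 12915, 11644 and 13171. Pecam1 (CD31), the marker on which all 3 populations were sorted, was at 31756, 32858, 30228 and 29267 in LN-LEC, 30772, 35453 and 29477 in D-LEC and 88387, 93689 and 106954 in LN-BEC, with LEC means 1.03-fold apart. Cdh5 (VE-cadherin), the junctional cadherin, was between 25428 and 31940.3 (median 27914) in LEC against 50421, 43530.05 and 49258 (-0.75 ± 0.08), and its partner phosphatase Ptprb between 14075 and 24783 (median 17839) against 44424, 39039 and 45723. Eng, Robo4, Gpr116, Mmrn2, Egfl7, Fli1, Ramp2 and Icam2 were the other lower members, from -1.40 ± 0.10 for Eng to -0.23 ± 0.07 for Icam2. The claudin gene Cldn5 went the other way and was higher in every LEC library, between 5496 and 9038 (median 7115) against 1814, 1337 and 2541 (1.92 ± 0.21). Ecscr, a receptor of endothelial cells, was the other higher member, between 17724 and 30420.4 (median 18858) in LEC and 13445 and 13894 in LN-BEC. The remaining 5 genes of the list were not called.

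In the basement membrane the collagen IV chains moved in pairs. Collagen IV is built from 6 chains whose genes lie head to head in 3 pairs. Col4a5 and Col4a6 on chromosome X (mm9, 137909962 to 138123778 and 137599946 to 137908619) were higher members, and the other 4 chains lower members. Col4a5 was at 2799, 2749.7, 2212 and 2806 in LN-LEC, 1425, 1295 and 2287 in D-LEC and 230.2, 141 and 227 in LN-BEC (3.41 ± 0.24), and Col4a6 was at 451, 424, 451 and 428 in LN-LEC, 527, 492 and 613 in D-LEC and 53.4, 31.1 and 56.7 in LN-BEC (3.39 ± 0.18). Col4a1 was at 7693, 8699, 8189.9 and 9568 in LN-LEC, 19346, 14951 and 13179 in D-LEC and 43714, 47732 and 41810.1 in LN-BEC, and Col4a2 differed by -2.10 ± 0.14. Col4a3 (at most 192) and Col4a4 were scarce, and their contrasts were -1.89 ± 0.22 and -0.78 ± 0.20. Per kb of exon, Col4a5 and Col4a6 together made up 13.7% to 17.3% of all collagen IV transcript in LN-LEC, 4.77% to 10.3% in D-LEC and 0.174% to 0.312% in LN-BEC, so that the share differed between LEC tissues as well. The a1 and a2 chains still dominated in every library.

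The 3 pairs differ in the space between their starts, and the sequences are given because each pair moved together. In the count table's annotation 1342 bases separate the starts of Col4a6 and Col4a5, 71 those of Col4a4 and Col4a3, and 2 those of Col4a1 and Col4a2. Shown are the 250 bases before each X-linked start on that gene's own strand and the whole interval between Col4a4 and Col4a3 on the plus strand, all from the mm9 build, 5′ to 3′, with capitals on matches to the CCAAT box, the GC box GGGCGG, the TATA box sequence TATAAA or the ETS core CGGAAG on either strand:
Col4a5 upstream, chrX:137909712-137909961, plus strand: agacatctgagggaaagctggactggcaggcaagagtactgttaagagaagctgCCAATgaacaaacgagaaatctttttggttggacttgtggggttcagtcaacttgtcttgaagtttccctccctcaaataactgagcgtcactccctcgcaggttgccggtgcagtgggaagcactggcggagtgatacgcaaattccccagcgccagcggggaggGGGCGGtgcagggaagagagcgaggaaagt
Col4a6 upstream, chrX:137908620-137908869, minus strand: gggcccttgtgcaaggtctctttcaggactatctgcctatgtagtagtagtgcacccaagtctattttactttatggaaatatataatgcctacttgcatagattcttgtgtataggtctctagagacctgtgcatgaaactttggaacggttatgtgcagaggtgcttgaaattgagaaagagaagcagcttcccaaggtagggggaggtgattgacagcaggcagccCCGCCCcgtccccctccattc
Col4a4 to Col4a3 interval, chr1:82583425-82583495, plus strand: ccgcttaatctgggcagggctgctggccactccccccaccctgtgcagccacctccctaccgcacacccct
The Col4a5 window holds 1 CCAAT and 1 GGGCGG match, the Col4a6 window 1 GGGCGG match, and the short interval none of the 4. A CCAAT match was found in 36.0% and a GGGCGG match in 54.4% of the 250-base windows upstream of 11958 tested genes in RefSeq (GRCm38.p6), so that such matches are common.

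Other chains of the membrane divided in the same 2 directions. Of 17 genes of the basement membrane list, 6 were called higher in LEC (35.3%) and 10 lower (58.8%), against 20.0% and 23.0% over all genes. Members were 9 of the 17, against 17.8% of all genes tested. Lama4, the laminin alpha chain of vessel walls, was between 11054 and 20214 (median 11904) in LEC against 4718, 4240.1 and 4155 (1.74 ± 0.08), Nid1 (nidogen) between 10503 and 12433 (median 12047) against 7031, 6698 and 7218, and Agrn (agrin) between 9069 and 11115 (median 10426) against 8026, 8083 and 7174. Hspg2 (perlecan), the large heparan sulphate proteoglycan, was lower, between 1674 and 2440.1 (median 2167) against 8083, 8590.1 and 7676 (-1.98 ± 0.09), as were Lamb2 (-0.82 ± 0.08) and Sparcl1. Lama5 also lay on the lower side but differed 9.74-fold between the LEC tissues. Mmp14, a membrane-bound collagenase, was a higher member between 3502 and 8152 (median 4053) in LEC and 887 and 1050.3 in LN-BEC, with Mmp17 (1.65 ± 0.15) and Adamts3, a protease that activates VEGF-C, at 1.84 ± 0.38. Among 25 integrins, 6 were called higher in LEC (24%) and 10 lower (40%). The 4 higher members were Itga9, a receptor of fibronectin's EIIIA domain and tenascin (3.28 ± 0.14), Itga8 (1.99 ± 0.25), Itgav (1.52 ± 0.13) and Itgb3 (1.97 ± 0.11). Fn1 (fibronectin) was itself a higher member at 9608, 8666, 8451 and 9252 in LN-LEC, 5472, 4419.5 and 5486 in D-LEC and 1965, 909.8 and 1943 in LN-BEC. Itgb5, Itga7, Itgal, Itga4 and Itga3 were lower members, so that of the beta partners of the alpha v chain Itgb3 was higher and Itgb5 lower in LEC (-2.82 ± 0.22).

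**Figure D3:**
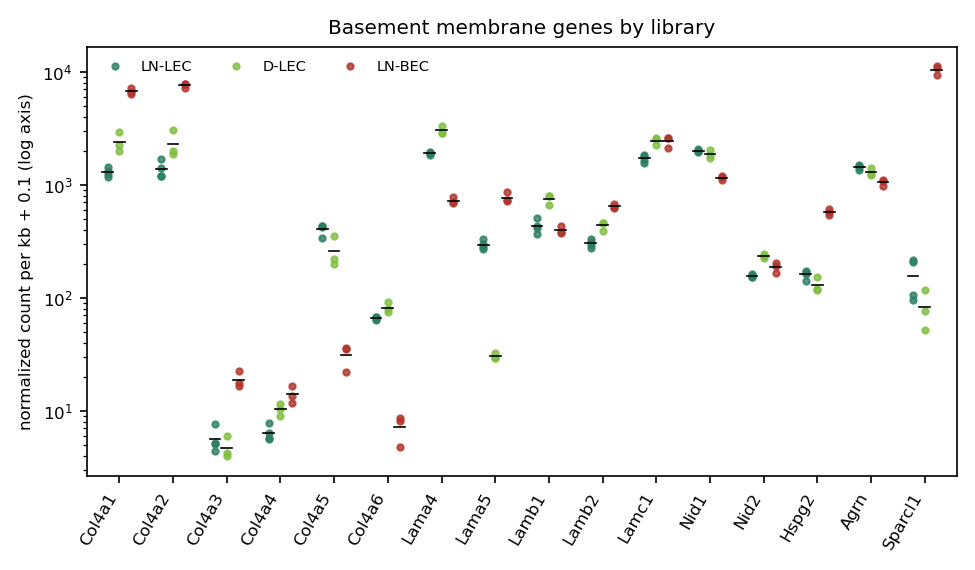
Normalized counts per kb of exon, plus 0.1, on a log axis for basement membrane genes; points are libraries and bars population means. Col4a5 and Col4a6 are lowest in LN-BEC and Col4a1, Col4a2, Hspg2 and Sparcl1 highest there.

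The Hox genes divided by cluster. Hox genes lie in 4 clusters and keep a record of position along the body axis, with vessels of different sites using different members. Of 30 Hox genes tested, 5 were called higher in LEC (16.7%) and 16 lower (53.3%), against 20.0% and 23.0% over all genes. All 5 called higher lie in the Hoxd cluster on chromosome 2, where none of 7 was called lower. In the Hoxa cluster 7 of 9 were called lower, in Hoxb 7 of 8 and in Hoxc 2 of 6, and in none of these was a gene called higher. The division by cluster was noticed after the values were seen, and the genes of a cluster are neighbours. Hoxd9 was at 12369.9, 13788, 12489 and 12809 in LN-LEC, 6336, 10603 and 7532 in D-LEC and 2068, 1879 and 3365 in LN-BEC (2.08 ± 0.22), and per kb it was the most abundant Hox gene of the programme in LEC. Hoxd8 was between 1552 and 1822 (median 1656) in LEC against 928, 852 and 951 (0.87 ± 0.08), Hoxd3 between 266 and 351 (median 314) against 186, 188 and 159 and Hoxd4 between 1015 and 1256 (median 1218) against 896, 899 and 769. Hoxd10 was called higher as well but differed 2.97-fold between LN-LEC and D-LEC. On the lower side Hoxa3 was between 864 and 1668 (median 1155) in LEC against 3709, 3916 and 2892 (-1.56 ± 0.12), and Hoxa2, Hoxa4, Hoxa5, Hoxb4, Hoxb5 and Hoxb6 were members with log2 fold changes from -2.0 ± 0.16 to -0.44 ± 0.11. The posterior genes Hoxa9, Hoxa10 and Hoxb9 had the largest differences but failed the limit, with D-LEC at or near 0: Hoxb9 was at 14.3, 15.2, 10.2 and 18.2 in LN-LEC, 1.26, 0 and 1.65 in D-LEC and 279, 362 and 221 in LN-BEC.

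**Figure D4:**
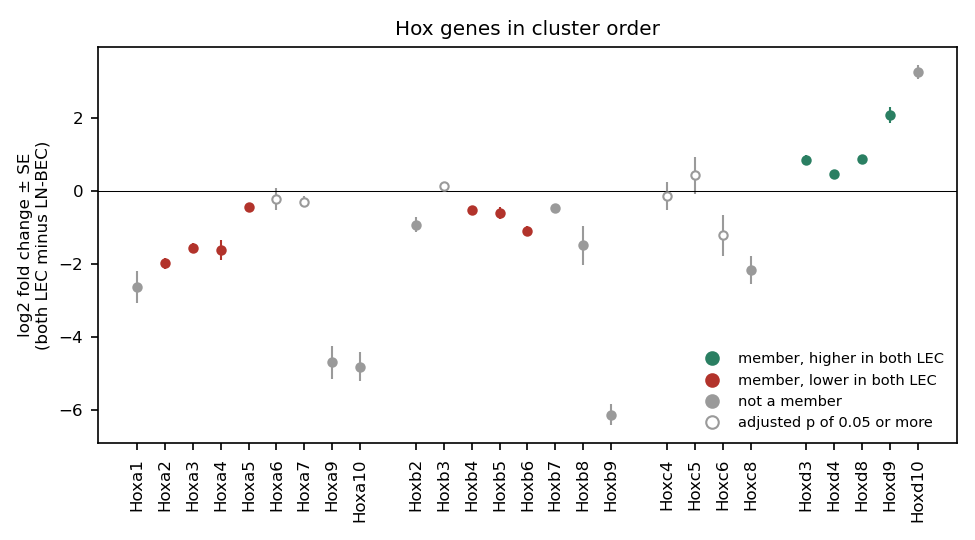
Log2 fold change of both LEC over LN-BEC with its SE for the 26 Hox genes with a mean of at least 10 in a population, in cluster order. Every filled point in the Hoxd cluster is above 0 and every filled point in the other clusters below it.

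Guidance molecules were found on both sides of the programme. Class 3 semaphorins are secreted repellents that signal through neuropilins and plexins, and Sema3a is known for its part in lymphatic valves. Sema3a was at 7831, 8792, 6386 and 7123 in LN-LEC, 3182, 4587 and 4103 in D-LEC and 168, 62.3 and 373 in LN-BEC (4.79 ± 0.55). Sema3d, its neighbour on chromosome 5, was at 21819, 22179, 19276 and 23407 in LN-LEC, 10957, 14166 and 13849 in D-LEC and 457, 164 and 1149 in LN-BEC (4.84 ± 0.63). Both were highest in LN-LEC, and in LN-BEC both were highest in replicate 3. Sema3g and Sema3c were lower members instead: Sema3g gave 60.4, 44.1 and 60.9 in LN-BEC and at most 1.26 in LEC, and Sema3c 614, 516 and 603 in LN-BEC and between 49.8 and 303 (median 149) in LEC. Among the plexins, Plxna4 (0.73 ± 0.11), Plxna3 (1.28 ± 0.26) and Plxnb3 (1.72 ± 0.39) were higher members, and Plxnd1, the endothelial semaphorin receptor, was lower, between 1748 and 2783 (median 2580.3) against 5529, 6151 and 5232, with Plxna2 (-0.39 ± 0.09) and Plxnc1 (-1.27 ± 0.23). In all, 7 of 29 semaphorins and plexins were called higher in LEC (24.1%) and 12 lower (41.4%), against 20.0% and 23.0% over all genes. Neither neuropilin gene was a member: Nrp1 was low in both LEC, while Nrp2 was called higher (0.89 ± 0.09) through D-LEC, at 24355, 26922 and 22855, with LN-LEC at 7315, 7221, 7941 and 6566 level with LN-BEC at 7315, 7486 and 6974. The netrin receptor Unc5b was a higher member between 1874 and 2834 (median 2104) in LEC and 899 and 944 in LN-BEC.

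Of 26 Wnt signalling genes, 11 were called higher in LEC (42.3%) and 3 lower (11.5%), against 20.0% and 23.0% over all genes. Only 5 were called higher and 1 lower in both single comparisons with LN-BEC. Over all genes those shares were 10.3% and 11.6%. The members were Wnt2 and Fzd6, higher in LEC, and the scarce Wnt10b, lower. Wnt2 was at 139, 109, 217 and 274 in LN-LEC, 294, 369 and 312 in D-LEC and 4.38, 5.19 and 30.5 in LN-BEC (4.27 ± 0.59). The receptor Fzd6, which acts in planar cell polarity, was between 11002 and 17152 (median 12261) in LEC against 6092, 4788 and 4734 (1.35 ± 0.11). Celsr1, a cadherin of the same polarity pathway, was between 1475 and 2206 (median 2035) in LEC against 638, 962 and 656 (1.29 ± 0.12). The giant cadherins Fat4 and Dchs1, a receptor and ligand that link cell polarity to growth control, were lower members, Fat4 between 1418 and 1962 (median 1904) against 6637, 6054 and 4927 and Dchs1 between 1049 and 2239 (median 1893) against 2837, 2968 and 2868.

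The last 3 genes belong to the lymphatic valve list. Of 18 tested, 11 were called higher in LEC (61.1%) and 3 lower (16.7%), against 20.0% and 23.0% over all genes. The median log2 fold change was 1.08, and 12 were members, against 17.8% of all genes tested. Besides Prox1, Foxc2, Itga9, Nfatc1, Celsr1, Fn1 and Sema3a, the connexin gene Gja4 (0.53 ± 0.12) and Efnb2, the ligand of Ephb4 (0.41 ± 0.11), were higher members. Both differences were small, and the lowest LEC library of Gja4 was 1.02 times its highest LN-BEC library. The claudin gene Cldn11 differed between the tissues, at 5753, 6034, 5057 and 6132 in LN-LEC and 521, 576 and 579 in D-LEC.

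Several receptors of the BMP and TGF-beta pathway were lower members. The type 1 receptor Acvrl1 (ALK1) was between 809.9 and 1289 (median 1002) in LEC against 2731, 2903 and 2624 (-1.38 ± 0.08). Its coreceptor Eng (endoglin) was between 3299 and 4716 (median 4110.3) against 10542, 11658 and 10403, and its type 2 partner Bmpr2 between 1823 and 2661 (median 2418) against 4947, 4465 and 3404. Bmpr1a (-1.15 ± 0.18), Acvr1b (-0.84 ± 0.17) and the ligands Bmp6 (-1.15 ± 0.23) and, scarce throughout, Bmp5 and Bmp15 were also lower members. Acvr1 (0.96 ± 0.13) and Tgfb1 (0.83 ± 0.13) were higher members. Over the family of 35, 9 were called higher in LEC (25.7%) and 12 lower (34.3%), against 20.0% and 23.0% over all genes. Of 38 TNF superfamily genes, 19 were called lower and 2 higher, but only 10 were called lower in both single comparisons with LN-BEC. Against LN-BEC, LN-LEC had 7 called higher and 11 lower, and D-LEC 2 higher and 21 lower. Fas, the death receptor, was a lower member between 204 and 249 (median 236) in LEC against 606, 496 and 735, with Tnfrsf10b, the receptor of TRAIL, between 3070.04 and 5331 (median 4232) against 9060.1, 10769 and 9311 and Tnfrsf1a between 1199 and 1862 (median 1659) against 2839, 3298 and 3103. Cd27 was the only higher member of the family and was scarce, at most 65.3. Interleukin receptors were called lower for 20 of 38 and higher for 5, and 3 were lower members, among them Il18r1 (-3.06 ± 0.34). In both single comparisons 10 of these receptors were called lower and 1 higher. LN-LEC had 10 called higher and 13 lower, and D-LEC 4 higher and 24 lower.

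Of 21 factors of the ETS family tested, which bind endothelial enhancers, 9 were called lower and 0 higher in LEC versus BEC, while in the single comparisons with LN-BEC 1 was called higher in LN-LEC and 3 in D-LEC. Of these factors Ets2, Elf1, Fli1 and Etv3 were lower members. Ets2 was between 24971 and 41381 (median 28372) in LEC against 79717, 72045 and 68007 (-1.21 ± 0.09). Sox factors were called lower for 9 of 16 (56.25%) and higher for 2 (12.5%), against 23.0% and 20.0% over all genes. The 2 called higher, Sox4 (0.33 ± 0.11) and Sox5 (1.03 ± 0.24), were both members. The call of Sox4 was lost without D-LEC replicate 2 (edgeR adjusted p = 0.0582), LN-BEC replicate 1 (0.0561) or LN-BEC replicate 3 (0.118). Sox13, a lower member, was between 224 and 483 (median 348) in LEC against 1254, 1358 and 1365 (-1.93 ± 0.12). Sox17, an arterial factor, had the largest difference of the family but failed the limit, at 37.6, 35.5, 24.9 and 58.5 in LN-LEC, 15.1, 18.03 and 21.5 in D-LEC and 3582, 3729 and 3954 in LN-BEC. Its difference was -7.08 ± 0.16, against -0.72 ± 0.09 for Sox18.

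Transporters of the blood vessel wall were mostly called lower in the contrast of both LEC with LN-BEC. In the transendothelial transport list 17 of 19 were called lower and 2 higher, and 4 were lower members. Only 10 were called lower in both single comparisons with LN-BEC. LN-LEC had 16 called lower and 0 higher, and D-LEC 11 lower and 4 higher. Slc2a1 (GLUT1), the glucose carrier, was between 2476 and 4381 (median 3439.7) in LEC against 9459, 11324 and 8993 (-1.62 ± 0.09), Tfrc, the transferrin receptor, between 449 and 1193 (median 916) against 1422, 1448 and 1963, and the membrane-shaping Ehd4 between 2065 and 3264 (median 2524) against 12748, 14149.97 and 10989.5. Abcb1b, the neighbour and paralog of Abcb1a, was between 72.4 and 152 (median 81.2) in LEC against 618, 418 and 611, and reads of so similar a pair could be split between them. Among 45 ABC transporters, 16 were called lower (35.6%) and 4 higher (8.89%), against 23.0% and 20.0% over all genes. All 4 called higher were members: Abcd2 (2.86 ± 0.36), Abcc5 (1.05 ± 0.11), Abcb10 (0.70 ± 0.08) and Abcb8 (0.64 ± 0.13). Potassium channels were called lower for 25 of 72 (34.7%) and higher for 7 (9.72%). Kcnq1 was at 666, 756 and 818 in LN-BEC and at most 20.1 in LEC, Kcna5 at 338, 339 and 526 and at most 20.7, and Kcnc2 at 218, 131 and 236 and at most 9.05. Kcnj8, a channel subunit better known from pericytes, was the only higher member of the family, between 487 and 939.8 (median 565) in LEC against 161, 145 and 147. Its partner subunit Abcc9 was slightly lower in LEC (-0.39 ± 0.10). Of 39 fucosyl-, sialyl- and sulfotransferases, 19 were called lower (48.7%) and 3 higher (7.69%). St6gal1 was between 8.83 and 19.04 (median 12.6) in LEC against 397, 288 and 376 (-4.87 ± 0.18), and St3gal6, a maker of selectin ligands, between 1806 and 3415 (median 2712) against 4991, 5209 and 5295. In the HEV list 14 of 16 were called lower in LEC, but St3gal6 was its only lower member, since LN-LEC held more than D-LEC of Glycam1, Madcam1, Enpp2, Chst2 and Gcnt1. Spns2, the exporter of sphingosine 1-phosphate, was higher in every LEC library, between 5534 and 7509.9 (median 6320.2) against 4455, 5147 and 4801 (0.43 ± 0.09).

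**Figure D5:**
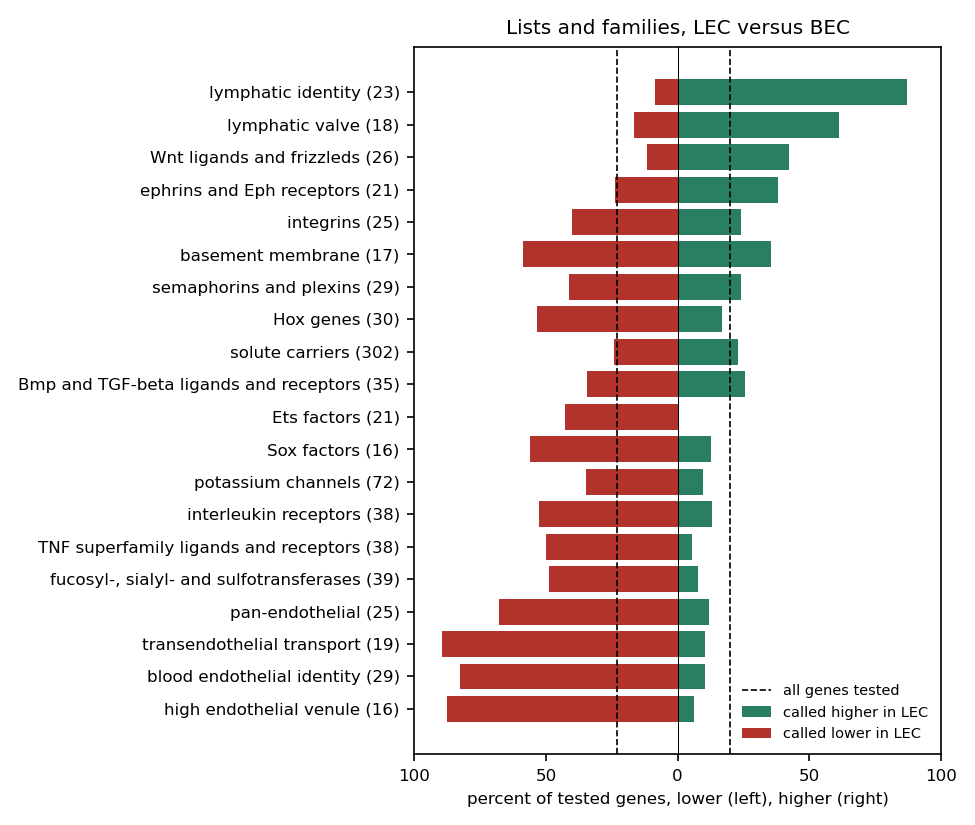
Percent of the tested genes of selected lists (number in parentheses) called higher (green, right) and lower (red, left) in LEC at an adjusted p under 0.05; dashed lines mark 20.0% and 23.0% over all genes tested. Of the lists drawn, which leave out the markers of other cells, lymphatic identity and valve reach farthest right and transport, HEV and blood endothelial identity farthest left.

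Transcripts of other cells were traced with marker lists. Skeletal muscle markers were called higher for 5 of 12 and lower for 1, with 11 of 12 higher in D-LEC over LN-BEC and 0 of 12 in LN-LEC. Their sum was lowest in D-LEC, at 1855 to 2866 against 3426 to 4003 in LN-LEC and 2866 to 3517 in LN-BEC, and Ttn, which made up most of it in the lymph node populations, had means of 845 in D-LEC, 3678 in LN-LEC and 3178 in LN-BEC. Mesothelial markers were called higher for 4 of 8 and lower for 0, with sums of 782 to 2356 in D-LEC, 88 to 441 in LN-LEC and 143 to 1099 in LN-BEC. Platelet and erythroid markers summed to 8757 to 12228 in LN-LEC, 200 to 367 in D-LEC and 1853 to 2077 in LN-BEC, and immediate early genes to 36070 to 96283, 273930 to 303640 and 102110 to 189240. The platelet and erythroid sum does not describe that list as a whole. Of its 7 tested genes, 2 were called higher and 2 lower in LN-LEC against LN-BEC, and Hbb-b1 and Hba-a1 had no fragment in any library. No muscle or mesothelial marker was called in the same direction in both single comparisons with LN-BEC. Of 12 fibroblast and pericyte markers 1 was called higher and 5 lower, of 11 myeloid markers 0 and 2, and of 14 cell cycle genes 0 and 2. The shares called lower were 41.7%, 18.2% and 14.3%, against 23.0% over all genes. Those called higher were at most 8.33%, against 20.0%.

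Ranked by level per kb, other members led. On the higher side these were Fth1 and Ftl1, the ferritin chains that store iron, Sepp1, the plasma selenium carrier, Aplp2, Rac1, Igfbp4, Ifi27l2a, S100a11, Hnrnpa0 and Ecscr. Fth1 was at 114499, 109227, 128706 and 100525 in LN-LEC, 74192, 86046 and 85680.4 in D-LEC and 34447, 34653 and 36449 in LN-BEC (1.46 ± 0.10), and Ftl1 between 14971 and 19171 (median 16907) against 10776, 11023 and 13377 (0.54 ± 0.09). Tfrc, which brings iron in, was lower in the same libraries. Sepp1 was between 73198 and 158025 (median 98209) in LEC against 26228, 22982 and 31283 (1.87 ± 0.15), Igfbp4, which binds insulin-like growth factors, between 23943 and 60918 (median 49391) against 9402, 9208 and 9829, and the calcium-binding S100a11 between 9727 and 14679 (median 10844) against 3408, 3087 and 3565. Rac1 differed by only 0.31 ± 0.07, with LN-LEC at 70060.01, 67552, 67805 and 67393 against 58821, 60474 and 59629.9. Ifi27l2a and Ftl1 belong to families with near-identical copies, so that their counts are uncertain. The abundant lower members were Pecam1, Lrg1, Cd81, Ramp2, Eef1a1 and 5 ribosomal protein genes. Lrg1, a secreted modulator of TGF-beta signalling, was between 15417 and 24934 (median 22235) in LEC against 48165, 63660.2 and 49893 (-1.44 ± 0.09), and Cd81, a tetraspanin, between 17089.6 and 30849 (median 28450.5) against 54165, 54426 and 59042. Ribosomal protein genes were looked at as a group because of these: 31 of 80 were lower members (38.75%) and 1 a higher one. Over all genes tested, 8.98% were lower and 8.87% higher members. The median log2 fold change of the 80 ribosomal protein genes was -0.24. Many have processed copies, and the shift is small.

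Some related genes diverged in the contrast of both LEC with LN-BEC. Of 15 pairs, 6 had both genes called in opposite directions: Flt4 and Flt1, Nrp2 and Nrp1, Lyve1 and Cd44, Itga9 and Itga4, Ccbp2 and Darc, and Mmrn1 and Mmrn2. In 1 of them, Itga9 (3.28 ± 0.14) and Itga4 (-1.34 ± 0.18), were both genes members. The calls of Cd44 and Nrp2 came through D-LEC. Against LN-BEC the log2 fold change of Cd44 was 0.54 in LN-LEC and -3.89 in D-LEC, and Nrp2 in LN-LEC was level with LN-BEC. Itga4 was between 70.6 and 166 (median 108) in LEC against 326, 309 and 242. Nr2f2 and Nr2f1, Foxc2 and Foxc1, and Cldn11 and Cldn5 were each called higher in both genes. Darc, an atypical chemokine receptor of venules, was at 6092, 8172 and 7324 in LN-BEC, 386, 326, 384 and 402 in LN-LEC and 8.83, 3.01 and 2.48 in D-LEC. Angpt2 was called higher. The call of Angpt1 (edgeR adjusted p = 0.0444) was lost without any 1 library other than LN-BEC replicate 3 (0.0582 to 0.147), and its D-LEC mean lay below that of LN-BEC.

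Members that lie side by side were counted by direction. Among 15293 pairs of neighbouring tested genes, both were members in 565, and 395 of these (69.9%) went the same way. Where both differed by at least 2-fold the share was 113 of 143 (79.0%), against 70.4% of the 1917 neighbouring pairs at that fold over all genes tested and 55.9% of all neighbouring pairs. Besides the collagen IV pairs, Foxc2 and Foxl1 lie 8790 bases apart on chromosome 8, and Itga9 lies next to Ctdspl (2.75 ± 0.09), Esam next to Vsig2 (-4.51 ± 0.20) and Endou next to Rapgef3 (-2.98 ± 0.08). These pairs were picked after their values were seen.

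The members' promoters and lengths were compared with those of all genes. The median gene span was 28202 bases for higher and 23899 for lower members, against 21144 over all genes tested. In the 250 bases before the start, a GGGCGG match was present for 61.8% of higher and 59.3% of lower members with a RefSeq promoter, against 54.4% of all. An ETS core CGGAAG was present for 20.0% and 22.2%, against 21.7%, and a TATAAA match for 6.22% and 6.19%, against 8.12%. Members with at least a 2-fold difference held the ETS core less often, at 13.5% of 385 higher and 12.9% of 503 lower ones, and also had a lower CpG ratio (observed over expected), with medians of 0.617 and 0.549 against 0.675. Members under 2-fold held the ETS core more often, at 23.7% of 693 higher and 30.2% of 580 lower ones. Their CpG medians were 0.7487 and 0.7535. Non-members were not split by fold. These shares are descriptions and were not tested, and a match is not a bound site.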

How the data were processed

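RNA-seq of 10 libraries was analysed: 4 LN-LEC, 3 D-LEC and 3 LN-BEC. Per the labels and methods, cells were depleted of CD45+ cells, sorted on CD31 and PDPN, and reads were aligned with STAR to mm9. The deposited values are whole-number counts per gene from featureCounts 1.4.4, with neither normalization nor molecular identifiers. Library totals and the 3-fragment floor, which cover counting error only, are given in the report.

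Of 23284 rows, 3827 predicted, RIKEN, LOC or clone rows were left out, and 15319 genes with a mean of at least 1 normalized count in a population were tested. edgeR 4.0.16 (R 4.3.3; TMM, robust quasi-likelihood, 1 mean per population) was fitted to all libraries, with Benjamini-Hochberg adjustment over all genes tested and a threshold of 0.05. Levels are counts over DESeq2 1.42.0 size factors. The fit was tested on simulated data.

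The members, lists and rules were chosen with earlier results of these data known, and the paralog pairs come from an earlier session. Named genes were all genes of the lymphatic, blood, pan-endothelial and valve lists and the pairs, up to 4 called genes per direction of every other list with the largest change and a mean of at least 100, the 15 members per direction with the widest gap between libraries and the 10 most abundant per kb, and 3 genes with a mean of at least 1000 on each side of the limit. Some genes under these rules are not reported here. Other genes were named after their values were seen. Alternatives were DESeq2's Wald test, its size factors, other filters, kept predicted rows, left-out libraries, a pooled LEC mean, a 2-fold test and other limits. Libraries pool mice, so p-values measure the spread between pools. No 2 libraries agreed within sampling noise. Sequences come from mm9 and promoters from RefSeq GRCm38.p6, matched by symbol for 11958 genes.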

Additional observations from a re-analysis of the deposited data

Results flagged for a closer look

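In 5 of the genes named in the text the LEC populations lay on opposite sides of LN-BEC, and the difference between the effects passed edgeR's quasi-likelihood test with adjustment over all genes tested. Ccrl1 was higher by 4.72 on the log2 scale in LN-LEC and lower in D-LEC (-1.74), a difference of 6.46 (adjusted p = 3.6e-05). The difference was 4.94 for Angpt1 (3.51 and -1.43, adjusted p = 3.8e-06), 4.43 for Cd44 (0.54 and -3.89, adjusted p = 1.2e-05), 2.14 for Ttn (0.23 and -1.91, adjusted p = 3.5e-07) and -0.97 for Tie1 (-0.57 and 0.41, adjusted p = 2.2e-06).

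Single LN-LEC libraries stood apart from the other 3 of their group by Dixon's criterion, which about 1 in 20 groups exceeds by chance. LN-LEC replicate 4 was the lowest for Ets2 (24971, next 28015), Fat4 (1532, next 1904), Hivep3 (309, next 413), Hoxd4 (1015, next 1218) and Tgfb1 (260.3, next 351), and the highest for Foxc1 (1997, next 1043), Itga3 (706, next 476), Mmrn1 (40067, next 32275), Reep1 (3045, next 2558), Thy1 (7646, next 5114) and Sema3g (1.26, next 0). Replicate 3 was the lowest for Col4a5 (2212, next 2749.7) and Plxna3 (69.0, next 107.5). Replicate 2 was the highest for Tfrc (1193, next 937), Abcb1b (104, next 75.4) and Slc2a4 (17.8, next 3.89) and the lowest for Bmp15 (0, next 1.13). Replicate 1 was the highest for Rac1 (70060, next 67805) and the lowest for Slco1a4 (0, next 1.13). In each of these genes the 7 LEC libraries still lay on one side of LN-BEC.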

How the results depend on the processing

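No paired analysis was possible because the labels give the libraries no replicate numbers shared between populations. The 6577 genes called in LEC versus BEC fell to 2269 when a difference of more than 2-fold was tested, to 3154 with 1 mean for the 7 LEC libraries, which puts the tissue difference into the spread, and to 3355 where both single comparisons had to pass. Leaving out 1 library in turn gave 5614 to 6494 genes for LEC versus BEC, 5060 to 6011 for LN-LEC versus LN-BEC, 6567 to 7375 for D-LEC versus LN-BEC, 6219 to 7217 for LN-LEC versus D-LEC, and 2843 to 3625 members (1418 to 1803 higher and 1425 to 1822 lower), with at least 96.7% of the members kept. Fewer libraries can only loosen the rule that all lie on one side. A member could be lost only through the 2-fold limit or the low-count filter, so that the share kept is no test of the members. Of the single libraries left out, LN-BEC replicate 3 gave the most members. With LN-LEC replicate 4 left out as well there were 3838, 1888 higher and 1950 lower. A limit of 1.5-fold or 3-fold between the LEC means gave 2168 or 3198 members. A pair of rules was added after the data were seen: 993 genes (283 higher and 710 lower) had both LEC means at least 4-fold from the LN-BEC mean, of which 443 were members, and 2699 members remained without the genes at 0 in LEC. Of the 236 named genes 0 changed direction, but 84 lost their call under at least 1 alternative, most often in the test of more than 2-fold (76) and with 1 LEC mean (28). Leaving out 1 library ended the call of 8: besides Angpt1 and Sox4, Ccrl1 without D-LEC replicate 3 (adjusted p = 0.0599) or LN-BEC replicate 1 (0.0789), Col4a4 (0.0539) and Pax5 (0.0707) without LN-BEC replicate 1, and Foxs1 (0.115), Hoxb5 (0.06) and Icam2 (0.0747) without LN-BEC replicate 2. Kdr was called lower by DESeq2's Wald test (adjusted p = 0.0288), in edgeR with DESeq2's size factors (0.0428) or a CPM filter (0.0401), without D-LEC replicate 2 (0.0311) and without LN-BEC replicate 3 (0.0374), and its adjusted p ranged up to 1 over the other alternatives. Eef1a1, a member with an adjusted p of 0.052, was called under 4 alternatives. Members near the floor of 3 fragments are limited by depth.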

Other observations

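Of 302 solute carriers tested, 69 were called higher and 73 lower in LEC, shares close to the 20.0% and 23.0% over all genes, and 34 were higher and 24 lower members. The genes named here were chosen after their values were seen. Among the facilitative sugar carriers Slc2a1, Slc2a3 (-1.74 ± 0.19), Slc2a4 (-2.96 ± 0.52) and Slc2a9 (-1.17 ± 0.24) were lower members and Slc2a10 (0.80 ± 0.11) a higher one. Slc2a4 (GLUT4), best known from muscle and fat, was at 32.4, 49.3 and 61.97 in LN-BEC and between 1.13 and 17.8 (median 4.01) in LEC. Of the cation and chloride cotransporters, Slc12a2 (-2.43 ± 0.32), Slc12a7 (-2.28 ± 0.09) and Slc12a4 (-0.50 ± 0.08) were lower and Slc12a9 (0.72 ± 0.12) higher. Slco1a4, an organic anion carrier of the blood-brain barrier, was at 85.8, 52.8 and 52.5 in LN-BEC and at most 4.01 in LEC.

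Orphan receptors were called higher for 10 of 80 (12.5%) and lower for 23 (28.75%), against 20.0% and 23.0% over all genes. Gpr124, a coreceptor for Wnt7 ligands, was a higher member between 540.01 and 1133 (median 722) in LEC against 184, 139 and 151 (2.44 ± 0.13), and Gpr56, an adhesion receptor, a lower one between 228 and 378 (median 296) against 4409, 5102 and 6253 (-4.16 ± 0.12). Of 31 chemokines, 4 were called higher (12.9%) and 10 lower (32.3%), and the linked genes Ccl2 (2.26 ± 0.40) and Ccl7 (1.92 ± 0.45), which attract monocytes, were the higher members. Ccl2 was at 709, 873, 631 and 1126 in LN-LEC, 588, 937 and 594 in D-LEC and 139, 78.7 and 269 in LN-BEC. Palmd, a paralemmin relative, was at 3811, 3178 and 3395 in LN-BEC and between 48.2 and 157 (median 88.2) in LEC. Ephrins and Eph receptors were called higher for 8 of 21 (38.1%) and lower for 5 (23.8%), yet Efnb2 was the only member.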
